A study of Mus musculus with 8 samples.

Results

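The genes described here are 10 genes of cytoplasmic actin and of the smooth muscle contractile apparatus: Actb, Actg1, Acta2, Actg2, Tagln, Tagln2, Cnn1, Myh11, Myl9 and Pfn1. All spots whose single gene symbol was one of these were taken, which gave 27 of the 33600 spots on the array and 9 of the 10 genes. Myl9 was not analysed here, since no spot carried its symbol alone. Actb had 17 spots, Actg1 and Actg2 had 2 each, and the other 6 genes had 1 each. The genes were chosen by the signals of Actb, which were already known to be lower in infarcted hearts, so their differences between the groups are given as a description and support nothing by themselves.

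The mice were C57Bl/6, 8 to 10 weeks old, and RNA came from the entire heart, in a model of heart failure after infarction. In the infarcted group (4 mice) a permanent ligature closed the left coronary artery at its descending branch. In the sham group (4 mice) the chest was opened and the suture placed under the artery but left untied. Each heart gave 1 two-colour array of 70-mer oligonucleotides, with heart RNA in the red channel and a pooled RNA of adult mouse tissues in the green channel. How long after surgery the hearts were taken is not stated. RNA of an entire heart mixes scar, border and remote muscle.

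Actin monomers join into filaments that shape every cell and, with myosin, make force. Actb and Actg1 encode the beta and gamma actins of the cytoplasm, which occur in nearly all cell types. Acta2 and Actg2 encode the smooth muscle actins of vessels and of visceral muscle, and Acta2 is also switched on in myofibroblasts, the contractile fibroblasts of healing wounds and infarct scars. Cardiac myocytes fill their sarcomeres with a further actin, encoded by Actc1. The proteins of the 4 member actins are nearly identical, and many genes of this group are driven by serum response factor, which binds a motif named the CArG box.

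Promoter windows from 250 bases before to 50 bases after a transcription start (RefSeq, GRCm38.p6) were matched for 6 of the 10 genes, Actg1, Acta2, Tagln2, Cnn1, Myl9 and Pfn1. The windows of Actg1 and Acta2 are printed because the results below set a cytoplasmic against a smooth muscle actin. Capitals mark exact matches to the CArG box as searched here: CC, then 6 letters of A or T, then GG. This pattern reads the same way on both strands, so that a search of the printed strand covers both. The Acta2 window is placed on a start that lies inside the outer limit of the annotated gene. No other motif was searched.
Actg1, chr11:120348446-120348745, minus strand: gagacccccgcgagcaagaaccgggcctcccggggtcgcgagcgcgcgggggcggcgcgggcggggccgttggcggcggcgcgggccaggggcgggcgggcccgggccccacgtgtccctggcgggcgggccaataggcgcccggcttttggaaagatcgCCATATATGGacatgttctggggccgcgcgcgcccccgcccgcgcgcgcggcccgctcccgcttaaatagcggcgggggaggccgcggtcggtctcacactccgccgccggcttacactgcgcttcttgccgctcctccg
Acta2, chr19:34255324-34255623, minus strand: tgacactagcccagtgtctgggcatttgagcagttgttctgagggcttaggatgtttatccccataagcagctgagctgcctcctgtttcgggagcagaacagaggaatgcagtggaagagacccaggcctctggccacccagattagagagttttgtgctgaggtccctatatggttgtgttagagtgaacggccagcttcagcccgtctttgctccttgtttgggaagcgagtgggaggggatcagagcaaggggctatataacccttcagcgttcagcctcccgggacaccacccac
The Actg1 window held 1 match, from 90 to 81 bases before the start. The Acta2 window held 0 exact matches, which says only that these letters are not in it. Strings that differ from the pattern by 1 letter were not searched for, and the Acta2 window holds such a string, ccctatatgg. Among the 6 windows, Actg1 and Myl9 held a match, and 1.63% of all 32851 windows of this length did. A match is a string of letters and not a measured site.

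A level here is the log2 of a spot's signal over the median of its printed block (700 spots), and a spot at 0 equals that median. The deposited values hold 1 channel only, taken here to be the heart channel, which the sources do not state. Values were present for 21916 to 23655 spots on the infarcted arrays and for 19704 to 24819 on the sham arrays. Of all spots, 20561 had at least 3 values in each group and were tested with limma, and all 27 member spots were among them. At a Benjamini-Hochberg adjusted p under 0.05 over these spots, 13 spots were higher and 144 lower in infarcted hearts, 0.764% of those tested. Markers of cardiac myocytes had 8 spots with a value on every array. The log2 of their summed signal, relative to the block median, was 7.66 to 7.87 on the infarcted arrays and 7.78 to 8.29 on the sham arrays. Such a sum grows with the number of spots and follows the brightest of them.

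Actb, the cytoplasmic beta actin, fell in infarcted hearts. Averaged over its 17 spots, its level was 3.08, 3.17, 2.71 and 2.89 on the infarcted arrays, against 4.90, 5.05, 4.75 and 4.91 on the sham arrays. The lowest sham array lay above the highest infarcted array, and the arrays of each group lay close together. The means were 2.96 ± 0.21 in infarcted and 4.90 ± 0.12 in sham hearts (SD, n = 4 each), a log2 difference of -1.94 ± 0.21 (SE of the limma fit), or a signal 3.83-fold lower. In whole-heart RNA, fewer cells that express a gene and less of its RNA per cell cannot be told apart.

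The 17 spots were not alike in origin. One of them, spot 23818 in block 35, stands alone. Its level was 4.17, 3.91, 3.58 and 4.09 on the infarcted arrays and 6.19, 6.19, 5.97 and 5.66 on the sham arrays. The difference was -2.07 ± 0.23 (SE), and the groups were clearly separated at this spot. The other 16 formed a grid, at positions 1, 57, 113 and 646 of blocks 19, 20, 23 and 24. The oligonucleotide sequences were not used here, so whether the 16 spots carry 1 sequence, and whether spot 23818 carries another, is unknown, and the spots are repeats within an array rather than replicates of a condition.

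All 17 Actb spots had a negative difference, with a median of -2.05. At 14 of the 17 spots the groups did not overlap, where 9.11% of all tested spots did not overlap in either direction and 6.33% did so with infarcted lower. Past the threshold 12 of the 17 were lower, against 0.7% of all tested spots lower, and 0 were higher, against 0.0632%, with adjusted p from 0.01 to 0.0424 (limma). Because the decrease of Actb led to the choice of the genes, these shares are given for orientation.

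**Figure D1:**
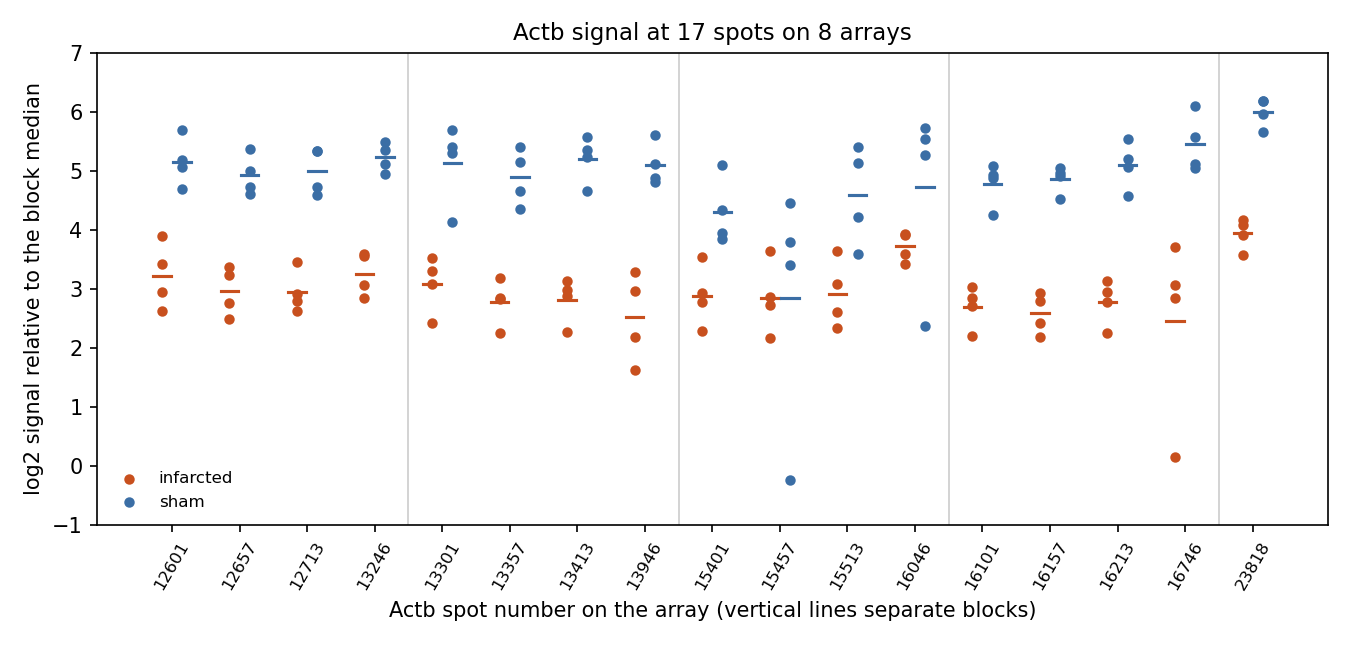
Levels of the 17 Actb spots (log2 signal relative to the block median, y axis) by spot number (x axis, blocks 19, 20, 23, 24 and 35 from left to right), with a point for each of 4 infarcted and 4 sham arrays and a bar at the group mean. The groups are apart at 14 spots and overlap at 3 spots of block 23, where single sham arrays lie as low as -0.24.

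Block 23 differed from the others. Its 4 spots averaged 3.09 ± 0.43 in infarcted and 4.12 ± 0.72 in sham hearts (SD, n = 4 each), a difference of -1.03, and 0 of the 4 passed. In blocks 19, 20 and 24 the differences were -1.98, -2.28 and -2.42, and 11 of 12 spots passed. Its array means were 2.67 to 3.68 in the infarcted group and 3.16 to 4.86 in the sham group, against 2.14 to 3.58 and 4.6 to 5.50 in the other 3 grid blocks. On sham replicates 1, 2 and 3 block 23 read lowest of the 4 blocks, and on sham replicate 4 it did not. Spot 15457 had 3.64, 2.73, 2.87 and 2.16 on the infarcted arrays, against -0.24, 3.40, 3.80 and 4.45 on the sham arrays, a difference of -0.0035 ± 0.87 (SE). Sham replicate 1 read far below the other 3 sham arrays there.

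Spot 16046 showed the same array apart. Its levels were 3.93, 3.60, 3.43 and 3.92 on the infarcted arrays and 2.37, 5.27, 5.72 and 5.54 on the sham arrays, a difference of -1.0 ± 0.65 (SE). The opposite case was spot 16746 of block 24, with 0.15, 3.07, 2.85 and 3.71 on the infarcted arrays and 6.10, 5.11, 5.05 and 5.57 on the sham arrays. Infarcted replicate 1 stood low at that spot, and the difference of -3.01 ± 0.66 (SE) did not pass (adjusted p = 0.0765, limma). Leaving out all 4 spots of block 23 gave a mean difference of -2.22, and leaving out any other block gave -1.79 to -1.93.

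The recovered signals, before division by the block median, showed the same direction. The median signal of the 17 spots was 6454, 5916, 5364 and 3460 scanner units on the infarcted arrays and 21464, 18319, 15566 and 18048 on the sham arrays. The groups were therefore separated without the block scaling too. The highest Actb signal was 43605, below the highest signal of any spot, 65466.

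The sizes depended on the scaling more than the direction did. After quantile normalization the Actb average differed by -1.45 (adjusted p = 0.0458, limma) and 2 rather than 12 spots passed. Without infarcted replicate 3 or 4 the average stood at -1.85 and -1.91 and no longer passed (adjusted p = 0.0695 and 0.0626), and 0 Actb spots passed in either case. Calls fell over the whole array too. Lower were 144 spots in the main fit, 30 after quantile normalization and 1 and 4 without infarcted replicate 3 or 4.

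The Actb grid belonged to a panel of 6 genes, each printed at 16 spots in 4 blocks and at the same 4 positions within a block. The blocks differed between the genes, so an effect of a block does not cancel in a difference between them. The other 5 were Gapdh, an enzyme of glycolysis, the ribosomal proteins Rpl5 and Rplp0, the histone variant gene H3f3b and the transcription elongation factor gene Tcea1. They were singled out after the values were seen. At the 16 grid spots Actb averaged 3.02, 3.12, 2.66 and 2.82 on the infarcted arrays and 4.82, 4.97, 4.67 and 4.86 on the sham arrays. The mean of the other 5 genes was 3.46, 3.48, 3.50 and 3.30 on the infarcted arrays and 4.0, 4.06, 3.59 and 3.51 on the sham arrays. The mean of the other 5 genes differed by -0.35, with Tcea1 positive and the rest negative. Actb was chosen for its decrease, so a wider gap for Actb was favoured by that choice and is a description.

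Within each array, Actb minus the mean of the other 5 genes was -0.44, -0.36, -0.85 and -0.48 on the infarcted arrays, against 0.82, 0.92, 1.08 and 1.35 on the sham arrays. The 8 values did not overlap, which the choice of Actb also favours. The means were -0.53 ± 0.22 and 1.04 ± 0.23 (SD, n = 4 each), a difference of -1.58, which was -1.45 to -1.59 under the other 5 scalings. Among these, removal of a spot position effect could not change it, since the genes of the panel share their positions and shifted alike. A ratio within an array shows unequal change and not which of the genes moved. Single genes of the panel differed by -0.91 for Gapdh, -0.51 for Rplp0, -0.47 for H3f3b, -0.37 for Rpl5 and 0.50 for Tcea1, and 0 of the 16 grid spots of each passed. The directions of Rplp0, Rpl5 and H3f3b depended on the scaling. After quantile normalization Rplp0 and Rpl5 stood at 0.21 and 0.10, and after cyclic loess at 0.20 and 0.11. With a spot position effect removed H3f3b, Rpl5 and Rplp0 stood at 0.07, 0.17 and 0.03. Gapdh stayed negative under every scaling, though small after quantile normalization (-0.10), and Tcea1 stayed positive.

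**Figure D2:**
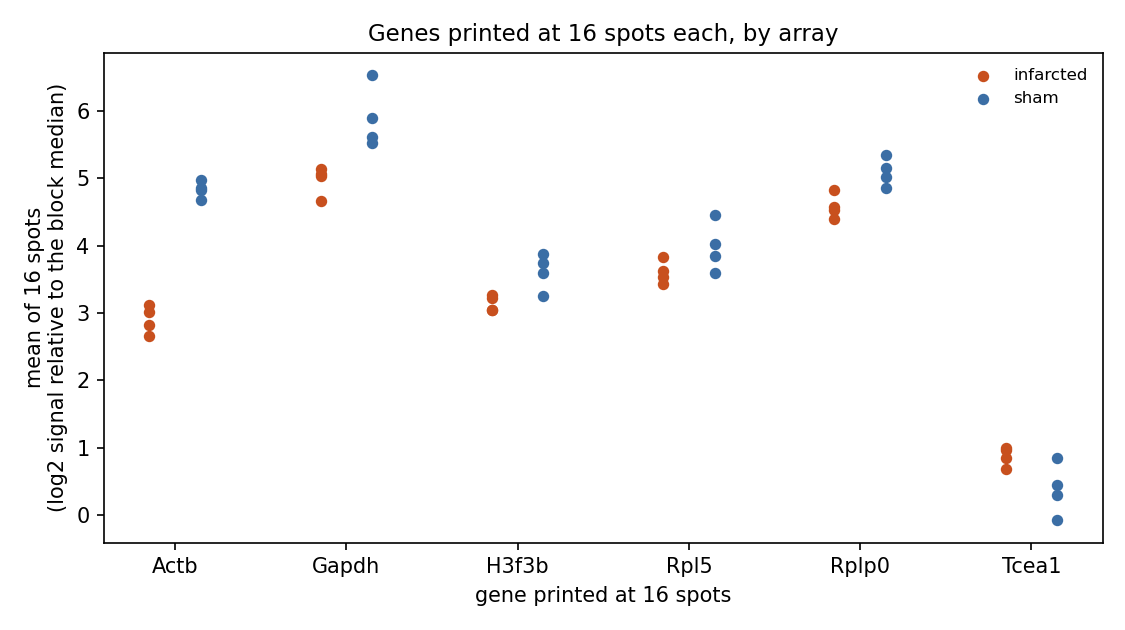
Mean of 16 grid spots (y axis, log2 signal relative to the block median) for the 6 genes of the printed panel, with a point for each of 4 infarcted and 4 sham arrays. Actb shows the widest gap, with infarcted arrays from 2.66 to 3.12 and sham arrays from 4.67 to 4.97, and Tcea1 averages 0.87 in infarcted and 0.37 in sham hearts.

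Bright spots as a class were lower in infarcted hearts, which stands beside every result on these bright genes. The median difference was -0.30 over 1064 spots with a mean level from 3 to 4, -0.61 over 788 spots from 4 to 5 and -0.89 over 432 spots above 5, against -0.07 over all tested spots. The 17 Actb spots had mean levels around 4, and their median of -2.05 lay below the medians of all of these classes. Differences of -2 or lower occurred in 0.472% of all tested spots. The part of signal level in the difference of Actb was not tested beyond the scalings given above.

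**Figure D3:**
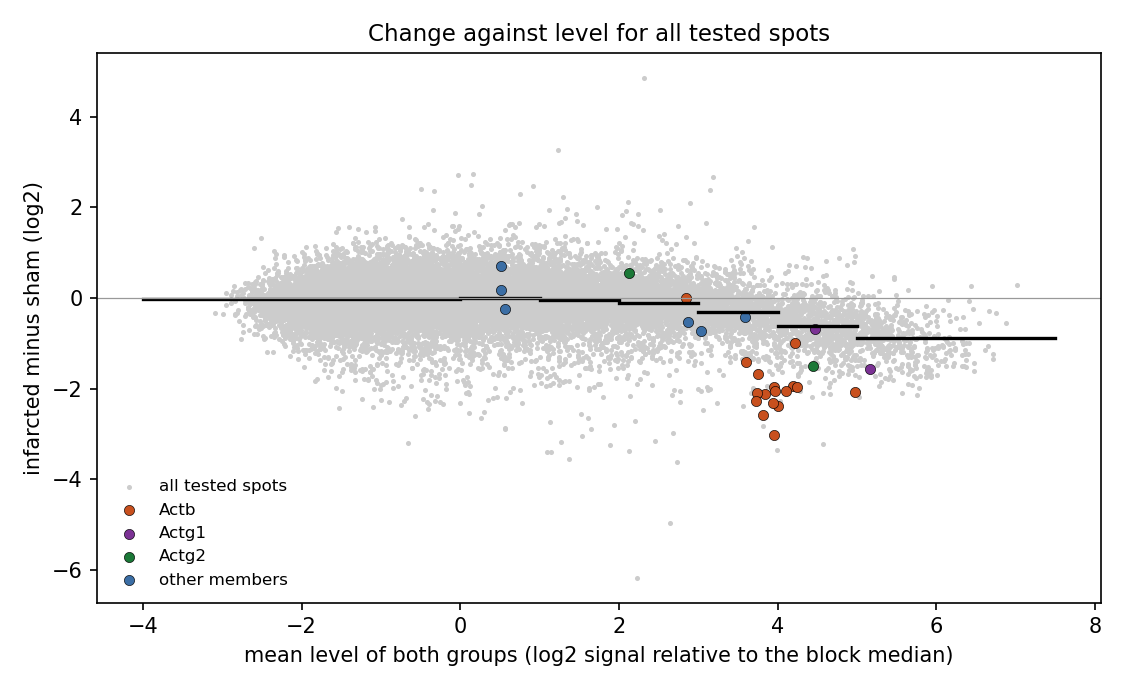
Difference between infarcted and sham hearts (y axis, log2) against the mean level of both groups (x axis, log2 signal relative to the block median) for the 20561 tested spots in grey, with member spots in colour and black bars at the median of each level class. Most Actb spots lie near -2 at levels around 4, below the bar of -0.30 or -0.61, whereas the other members lie closer to the bars.

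Actg1, the cytoplasmic gamma actin, had lower values at both spots but did not pass. Spot 11939 read 4.37, 4.22, 3.83 and 4.09 on the infarcted arrays and 4.80, 4.99, 4.79 and 4.65 on the sham arrays. The groups did not overlap, and the difference was -0.68 ± 0.21 (SE, adjusted p = 0.205, limma). Spot 9754 read 4.41, 4.62, 3.74 and 4.80 on the infarcted arrays and 6.31, 6.25, 7.07 and 4.17 on the sham arrays. Sham replicate 4 lay among the infarcted arrays there while the other 3 sham arrays were far higher, and the difference was -1.56 ± 0.55 (SE, adjusted p = 0.264). Averaged over both spots, Actg1 was at 4.26 ± 0.32 in infarcted and 5.38 ± 0.67 in sham hearts (SD, n = 4 each), a difference of -1.12 ± 0.34 (SE, adjusted p = 0.202). Without sham replicate 4 the difference was -1.44 and passed (adjusted p = 0.0181, limma), and after quantile normalization it was -0.41. Calls over the whole array also rose without sham replicate 4, to 691 lower of 21775 tested spots, against 144 of 20561 in the main fit.

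Of the smooth muscle actins, Acta2 did not pass. Its 1 spot read 2.80, 3.12, 2.28 and 2.46 on the infarcted arrays and 2.84, 3.10, 3.92 and 3.72 on the sham arrays. Sham replicates 1 and 2 lay within the infarcted range and the other 2 above it. The difference was -0.73 ± 0.31 (SE, adjusted p = 0.361, limma), and over the alternative settings it ran from -0.91 to -0.42, so no setting gave a higher Acta2 signal in infarcted hearts.

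Actg2, the smooth muscle gamma actin, was printed at position 363 of blocks 8 and 16, and its spots disagreed. Spot 5263 read 2.63, 2.17, 2.39 and 2.40 on the infarcted arrays and 1.20, 1.94, 2.62 and 1.67 on the sham arrays, a difference of 0.54 ± 0.30 (SE, adjusted p = 0.52, limma). At spot 10863 the values were 3.46, 4.28, 2.97 and 4.07 on the infarcted arrays and 4.47, 6.85, 6.69 and 2.79 on the sham arrays, a difference of -1.50 ± 0.81 (SE, adjusted p = 0.493). The sham arrays alone spanned more than the distance between the groups at this spot. Across the 8 arrays the 2 Actg2 spots correlated with each other at r = 0.072, and spot 10863 correlated with the Actg1 spots 9754 and 11939 at r = 0.889 and 0.660. For spot 5263 these were -0.180 and -0.471. These are descriptions over 8 points that share the arrays. Actin genes are close in sequence, and whether a spot also bound the RNA of another actin was not tested.

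The sarcomeric actin of the heart, Actc1, could not be compared. Its 2 spots read 5.84 to 6.58 on the 4 infarcted arrays, with signals of 27968 to 56145 scanner units. Of the 8 sham values 7 were missing, and the 1 present was 6.64. Spots whose signal passed 20000 on any array lacked 38 values in the infarcted group and 190 in the sham group, so a missing value does not show a low level. Acta1 was not analysed here.

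Among the actin-binding members, Tagln2 was the most like Actb across the arrays (r = 0.840). Transgelin 2 is a relative of the smooth muscle protein SM22 that occurs in many cell types. It read 2.39, 2.56, 2.83 and 2.63 on the infarcted arrays and 3.09, 3.31, 3.15 and 2.97 on the sham arrays. The groups did not overlap, but the difference of -0.53 ± 0.21 (SE) did not pass (adjusted p = 0.321, limma). Tagln, which encodes SM22 itself, had 0.09, 0.75, -0.00 and 0.92 on the infarcted arrays, against 1.33, -0.99 and 1.73 on 3 sham arrays and no value on sham replicate 4. Its sham values spread over a wider range than all infarcted values, and the difference of -0.25 ± 0.61 (SE) changed sign, to 0.07 and 0.27, without sham replicate 1 or 3.

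Cnn1 and Myh11 had positive differences that did not pass. Cnn1, calponin of smooth muscle, which binds actin and slows the myosin motor, read 0.94, 0.91, 0.26 and 1.37 on the infarcted arrays and -0.00, 0.33, 0.90 and -0.54 on the sham arrays. The groups overlapped, at a difference of 0.70 ± 0.35 (SE, adjusted p = 0.459, limma). Myh11, the smooth muscle myosin heavy chain, read 0.84, 1.02, 0.22 and 0.30 on the infarcted arrays and 0.41, 0.42, 0.60 and 0.23 on the sham arrays, a difference of 0.18 ± 0.25 (SE, adjusted p = 0.83). The sham arrays lay inside the infarcted range. Both genes stood near the block median.

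Pfn1, profilin, which loads actin monomers for filament growth, read 3.44, 3.25, 3.60 and 3.24 on the infarcted arrays and 3.68, 4.47, 3.68 and 3.36 on the sham arrays. The groups overlapped, and the difference was -0.42 ± 0.27 (SE, adjusted p = 0.587, limma). It was 0.02 after cyclic loess. In all, 0 of the 10 spots of members other than Actb passed, where 0.764% of all tested spots did, and 7 of the 10 had a negative difference, where 56.8% of all tested spots did.

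**Figure D4:**
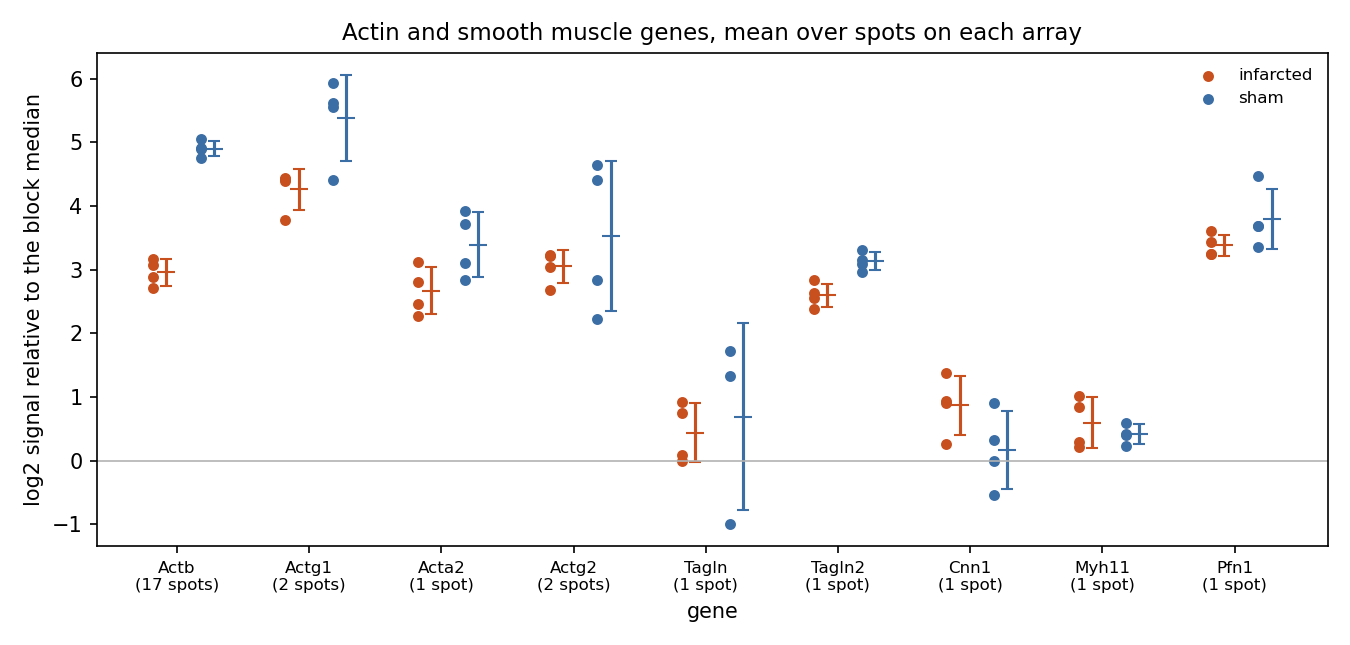
Levels of the 9 genes with a spot (y axis, log2 signal relative to the block median), averaged over the spots of a gene on each array, with points for single arrays and bars for mean and SD of the infarcted and sham groups (n = 4 each, but 3 sham values for Tagln). Actb and Tagln2 show no overlap between the groups, and the other 7 genes do. Of all tested spots 9.11% did not overlap, and the share over gene averages was not counted.

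Partners of these proteins were counted in lists chosen with earlier results known. Of 25 genes that work with the smooth muscle contractile apparatus or control its transcription, 18 were tested at 28 spots. None of the 28 passed, where 0.764% of all tested spots did, so a count of 0 is near the background. Differences were positive at 13 and negative at 15 spots, with a median of -0.01. The smallest p belonged to Fhl2, a LIM protein of heart and smooth muscle, which read 5.99, 5.33, 5.35 and 5.64 on the infarcted arrays and 7.35, 6.59 and 6.26 on 3 sham arrays. Its difference of -1.16 ± 0.32 (SE, adjusted p = 0.169, limma) did not pass. Next was a spot of the tropomyosin gene Tpm1 at 1.16 ± 0.34 (adjusted p = 0.173). Then came Rock1, a kinase that raises smooth muscle tone, at 0.99 ± 0.35 (adjusted p = 0.273), and Kcnmb1, a potassium channel subunit, at -0.58 ± 0.25 (adjusted p = 0.379).

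Regulators of the actin filament gave the same count. Of 50 genes 43 were tested at 57 spots, 0 passed, 22 spots had positive and 35 negative differences (0.764% passed and 56.8% were negative over all tested spots), and the median of -0.06 was close to the -0.07 of all tested spots. Gsn, gelsolin, which severs filaments, read 5.35, 5.41, 5.53 and 5.43 on the infarcted arrays and 6.81, 6.60 and 6.17 on 3 sham arrays, a difference of -1.10 ± 0.24 (SE, adjusted p = 0.0886, limma). Tmsb10, a thymosin that binds actin monomers, stood at -0.80 ± 0.22 (adjusted p = 0.138) and Capzb, a subunit of the capping protein, at -0.66 ± 0.22 (adjusted p = 0.227). Lcp1, the plastin of white blood cells, differed the other way, with 1.10, 1.19, 1.27 and 1.30 on the infarcted arrays and 0.55, 0.34, 0.64 and 0.66 on the sham arrays, and did not pass (0.67 ± 0.20, adjusted p = 0.182). At these 4 spots, picked by smallest p, the groups did not overlap. In the whole list this held for 6 of the 57 spots, near the 9.11% of all tested spots.

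Genes often used as loading controls were read as a list because Actb itself is often used so. Of 53 tested spots of 9 other such genes, 48 had a negative difference, with a median of -0.65, where 56.8% of all tested spots were negative. Most of these spots were repeats within an array: the printed panel gave 16 of Gapdh and 16 of Rplp0, with 15 and 16 negative. The count of 48 is therefore not an agreement among separate genes. Past the threshold 2 were lower, both of Gapdh, where 0.7% of all tested spots were lower. They were spot 33071 at -1.61 ± 0.28 and spot 28223 at -1.44 ± 0.25 (SE, adjusted p = 0.0392 and 0.0445, limma). These are bright spots. In their class, above level 5, 46 of 432 spots were lower past the threshold and the median difference was -0.89.

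Markers of cell types of the heart were counted too, with 0.764% of all tested spots past the threshold, so that counts of 0 in lists this short show nothing particular to them. Smooth muscle cell and pericyte markers had 0 of 17 spots past the threshold and a median of -0.07, and fibroblast and myofibroblast markers 0 of 15 and a median of -0.05. The log2 of the summed signal over 16 complete smooth muscle and pericyte spots was 6.99 to 7.15 on the infarcted arrays and 6.77 to 7.35 on the sham arrays. Over 12 complete fibroblast and myofibroblast spots it was 6.52 to 6.97 on the infarcted arrays and 6.59 to 7.2 on the sham arrays. The groups overlapped in both lists. The median was 0.20 for 15 endothelial spots, 0.14 for 14 cardiac myocyte spots and 0.69 for 15 spots of macrophages and monocytes, of which 13 had a positive difference and 0 passed. The tested myocyte spots covered 7 genes, out of 14 genes with 24 spots on the array. The other spots lacked enough values, so the myocyte median leaves out much of that list. The log2 of the summed signal of the macrophage and monocyte spots was 6.21 to 6.94 on the infarcted arrays and 5.97 to 6.63 on the sham arrays. The part of these cells in the levels of the actin genes was not tested. Of single markers, Gpnmb of phagocytes had the smallest p, with -0.13, 0.41, -0.79 and -0.64 on the infarcted arrays and -2.0, -1.87, -2.15 and -1.43 on the sham arrays, a difference of 1.58 ± 0.31 (SE, adjusted p = 0.0512, limma). Among the fibroblast markers, with 6 positive and 9 negative spots, the smallest p was that of Postn, periostin, at 1.76 ± 0.54 (adjusted p = 0.197). Next were Loxl1, an enzyme of elastic fibres, at -0.63 ± 0.21 (adjusted p = 0.228), Cthrc1 at 0.90 ± 0.29 (adjusted p = 0.236) and the collagen gene Col3a1 at -0.61 ± 0.23 (adjusted p = 0.284).

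The genes whose averages over the 8 arrays were most like that of Actb, among 8837 genes with a value on every array, were Ndufb10 (Pearson r = 0.984), Olfr1263 (0.979), Olfr575 (0.975), Rpl31 (0.973) and Uqcrb (0.970). Their differences ran from -2.27 to -0.78. Since Actb varied over the arrays mainly between the groups, a choice by likeness to Actb largely fixes such differences, and nothing is read from them. Among the members r with Actb was 0.840 for Tagln2, 0.787 for Actg1, 0.704 for Acta2, 0.567 for Pfn1, 0.315 for Actg2, -0.227 for Myh11 and -0.584 for Cnn1, and for the single Actg1 spots it was 0.942 at spot 11939 and 0.689 at spot 9754. The points of each r share the 8 arrays, and the values are descriptions without a test.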

How the data were processed

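The authors deposited log2 values for 33600 spots on 8 arrays. Tested on the values, each was 1 channel's signal over its block median: 2 to the power of the value, multiplied by 1 constant per block and array, gave whole numbers (tolerance 0.001) in all 48 blocks of 700 spots. Software, background correction and flags are not given in the sources used here. Per the labels' protocols, 30 µg of RNA was labelled for each channel, always in the same dye orientation. Spots were named through the platform annotation: a single gene symbol was listed for 18179, several for 87 and none for 15334.

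The values were centred on the array median. Spots with at least 3 values in each group were fitted in R 4.3.3 by limma 3.58.1 (lmFit, then eBayes), with Benjamini-Hochberg adjustment over all 20561 spots. Gene averages were fitted the same way over 18044 genes and unnamed spots. The number of arrays limits the precision. Hearts were separate per the labels, and arrays of a group correlated at 0.873 to 0.958. The fit was tested on simulated data. Members, lists and alternatives were chosen with earlier results of these data known. Named genes were all members, up to 4 genes with the smallest p per list and any past the threshold, the sarcomeric actins, and the 5 genes most correlated with Actb. The genes of the printed panel were named after their values were seen. The replicate numbers were not used to pair the arrays in the main fit. The correlations of deviations of same-numbered arrays ran from -0.199 to 0.313, and whether such arrays shared a step of processing was not tested.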

Additional observations from a re-analysis of the deposited data

Results flagged for a closer look

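In 4 groups of 4 arrays, 1 array stood apart from the other 3 by more than Dixon's critical ratio of gap to range. The groups examined were 137, and chance alone flags about 1 in 20. Actb spot 16046 read 2.37 on sham replicate 1, against 5.27 to 5.72 in the rest of the sham group. The Actg1 average read 3.78 on infarcted replicate 3, against 4.39 to 4.44 in the rest of the infarcted group. A spot of Pdgfrb, a receptor of pericytes and fibroblasts, read 1.12 on sham replicate 4, where its group otherwise lay at 1.67 to 1.71. A spot of Cthrc1, a secreted protein of activated fibroblasts, read -0.89 on infarcted replicate 4, where its group otherwise lay at -1.81 to -1.68.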

How the results depend on the processing

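Actb kept a negative difference under all 23 alternatives, from -2.01 to -1.42, and stayed past the threshold in 20 of them. The exceptions were the replicate block (-1.94, adjusted p = 0.119) and leaving out infarcted replicate 3 or 4 (adjusted p = 0.0695 and 0.0626, limma). Leaving out 1 array at a time gave -2.01 to -1.85. The cause of these shifts was not tested, except that fewer arrays enter the last fits.

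The 12 member spots that were lower became 2 after quantile normalization and 7 with a spot position effect removed. They became 7 with the whole-array median in place of block medians (chosen after seeing the data) and 0 with the replicate block. Without single arrays the count was 0 to 13. It was 2 without infarcted replicate 1, 7 without infarcted replicate 2, 0 without infarcted replicate 3 or 4 and 8 without sham replicate 1. In the settings named, calls over all tested spots fell too. Of 20561 spots 144 were lower in the main fit and 30 after quantile normalization. With the position effect removed 70 were lower, with the whole-array median 44 and with the replicate block 0. Leaving out infarcted replicates 1 to 4 in turn gave 7, 16, 1 and 4, and leaving out sham replicate 1 gave 38. Averaged per gene, 1 member gene of 9 was lower, Actb, whose 17 spots then count once. Of all 18044 genes and unnamed spots in that fit 0.493% were lower. The median Actb difference of -2.05 was -1.53 after quantile normalization, -1.50 after cyclic loess and -1.53 with the position effect removed, and -2.14 to -1.92 without single arrays. The position effect was estimated from spots that include the Actb grid and the rest of the panel, so its removal can also take up part of their own difference.

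Over all tested spots the 13 that were higher became 5 after quantile normalization, 37 with array weights, 1 with the replicate block, 43 without the 2 sham arrays that had fewest values, 6 with the whole-array median and 2 to 41 without single arrays. The 144 that were lower became 30 after quantile normalization, 81 with scaling to equal median absolute deviation, 81 after cyclic loess, 70 with the position effect removed, 232 among spots above the block median, 374 with array weights, 0 with the replicate block, 1182 without those 2 sham arrays, 89 averaged per gene, 44 with the whole-array median and 1 to 691 without single arrays.

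Pfn1 turned to 0.02 after cyclic loess, and Tagln turned to 0.07 without sham replicate 1 and ranged from -1.09 to 0.27 without single arrays. With values required on all 8 arrays Tagln had no value. Same-numbered arrays had correlations of deviations of 0.035, 0.313, -0.092 and -0.199, within the range of all pairs of arrays from the 2 groups (-0.199 to 0.332). Whether same-numbered arrays shared a step of processing was not tested. Under the replicate block the Actb difference stayed at -1.94 and its SE at 0.21. That fit estimates more coefficients from the same 8 arrays, and why calls were lost there was not tested. Bright spots lacked more values on the sham arrays, which limits what can be said of the most abundant genes.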
